A study of Mus musculus with 15 samples.

Results

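Both arms of let-7e and the 5p arm of miR-125a (mmu-let-7e-5p, mmu-let-7e-3p and mmu-miR-125a-5p) were followed across small RNA libraries of Kupffer cells, the macrophages that reside in the mouse liver. They were chosen as the measured mature arms of the miR-99b/let-7e/miR-125a cluster, with earlier results of these data known. They are 3 of the 248 mature miRNAs listed. The cells came from C57BL/6J mice (wt) aged 9 weeks (n = 4) or 14 weeks (n = 4), and from mice labelled ob/ob, an obese strain without functional leptin, aged 9 weeks (n = 3) or 14 weeks (n = 4). The labels name no treatment for any of these 4 groups. Lane 2 held every 9-week library and replicates 3 and 4 of both genotypes at 14 weeks, whereas replicates 1 and 2 at 14 weeks were run in lane 1. The labels do not tie replicates to separate animals. A p-value therefore measures only the spread between samples, which can be technical.

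The 3 hairpins of the cluster lie close together and can be cut from one primary transcript. Each hairpin gives a 5p and a 3p arm, of which one is usually loaded into Argonaute and the other mostly degraded. Bases 2 to 8 of a mature miRNA, its seed, pair with target mRNAs. In macrophages and monocytes the cluster is known from endotoxin tolerance, the dampened response to repeated lipopolysaccharide, where let-7e has been reported to target the lipopolysaccharide receptor Tlr4, and miR-125a-5p to dampen inflammatory activation.

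Mature sequences, from RefSeq with build GRCm38.p6, are shown first because the values of the arms depend on how well close relatives were told apart. Seeds are in capitals.
let-7e-5p: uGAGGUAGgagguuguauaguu
let-7a-5p: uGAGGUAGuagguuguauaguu
let-7c-5p: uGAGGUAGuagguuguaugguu
let-7e-3p: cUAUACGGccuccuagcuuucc
miR-125a-5p: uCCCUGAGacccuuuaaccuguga
miR-125b-5p: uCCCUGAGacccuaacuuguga
miR-351-5p: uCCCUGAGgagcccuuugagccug

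Counting from 1 at the 5-prime end, let-7e-5p differs from let-7a-5p by 1 base, G9U, and from let-7c-5p by G9U and A19G. G9U, just outside the seed, is shared by all 8 of the other measured let-7 family 5p arms. let-7a-5p was 11.3 to 25.7 times as abundant as let-7e-5p within a library, so the level of let-7e-5p rests on that base being read and assigned correctly, which is not stated in the sources used here. miR-125a-5p shares its first 13 bases with miR-125b-5p and its first 8 with miR-351-5p, and was 6.66 to 16.8 times as abundant as the former. The seed of let-7e-3p occurred in no other listed arm among the 218 of 248 (87.9%) matched to a sequence.

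Both hairpins are shown with the measured arms in capitals, because the ratios below compare arms of 1 hairpin and arms of neighbouring hairpins.
Mirlet7e: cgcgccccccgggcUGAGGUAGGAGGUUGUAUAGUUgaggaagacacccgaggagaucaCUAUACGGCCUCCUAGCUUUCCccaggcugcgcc
Mir125a: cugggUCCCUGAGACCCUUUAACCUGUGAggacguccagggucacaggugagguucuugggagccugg

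Mirlet7e (ENSMUSG00000105758.1) lies at chr17:17830352-17830444 and Mir125a (ENSMUSG00000065479.2) at chr17:17830812-17830879, both on the plus strand of GRCm38 in GENCODE vM21. They lie inside Spaca6, a gene for a sperm membrane protein, on the same strand. Mirlet7e overlaps no Spaca6 exon and is intronic. Mir125a overlaps 47 bases of an exon in 1 processed transcript of Spaca6 and no UTR. Mir99b starts the cluster at chr17:17830188-17830257, 94 bases before Mirlet7e, and 367 bases separate Mirlet7e from Mir125a. Arms of miR-99b and the 3p arm of miR-125a were not analysed here.

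Values are in RPM, reads per 1000000 reads, a unit inferred from the values. Depth, read from the step between low values, was 9.08 to 98.0 M reads (M, 1000000), with 13.4 to 22.8 (wt) against 25.9 to 33.9 (ob/ob) at 9 weeks, and 9.08 to 39.0 against 44.1 to 98.0 at 14 weeks. The 248 miRNAs summed to 297668 to 358621 RPM (wt) against 230785 to 250422 (ob/ob) at 9 weeks, and to 147387 to 353829 against 272978 to 333502 at 14 weeks. The lowest sum belonged to wt replicate 1 of 14 weeks. Since these sums differed with genotype at 9 weeks, each comparison is given as deposited and after median-ratio rescaling, in which a library is divided by its median ratio to the geometric mean of all libraries compared. Whether depth or the sums had a part in the differences below was not tested.

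At 9 weeks all 3 arms were lower in ob/ob than in wt Kupffer cells, let-7e-5p from a mean of 476.8 to 206.0 RPM, let-7e-3p from 4.78 to 1.16 and miR-125a-5p from 1977 to 622.0. At 14 weeks let-7e-3p was again lower, 1.59 against 4.60 RPM, and the other two passed the test only after rescaling. In bulk RNA, fewer cells of a type and less RNA per cell cannot be told apart.

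**Figure D1:**
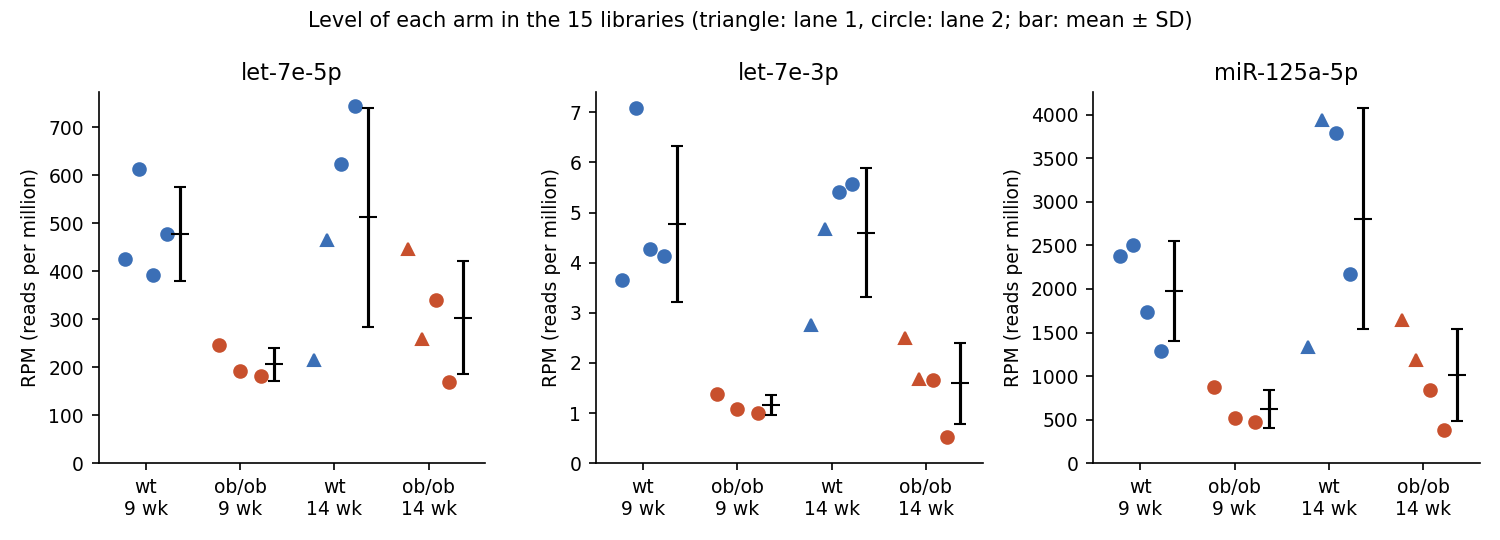
Level of each arm in RPM (y axis, linear, from 0) in the 4 groups (x axis), 1 point per library, with the mean and SD as bars; triangles are lane 1 and circles lane 2. At 9 weeks the ob/ob points lie below all wt points in each panel, and at 14 weeks they do so for let-7e-3p only. Such separation with ob/ob lower held for 41.3% of the 179 miRNAs tested at 9 weeks and 5.26% of 171 at 14 weeks.

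let-7e-5p, the main arm of its hairpin, ranked 35 to 47 of 248 by level and made up 0.0620 to 0.210% of the listed sum. In wt at 9 weeks the 4 libraries held 425.2, 613.6, 391.6 and 476.6 RPM, with a mean of 476.8 ± 97.7 (SD, n = 4). In ob/ob at 9 weeks they held 245.7, 191.6 and 180.7 RPM, mean 206.0 ± 34.8 (n = 3). The groups did not overlap, the highest ob/ob library lying below the lowest wt library, as for 41.3% of the 179 miRNAs tested. In wt at 14 weeks the values were 214.2, 464.8, 623.6 and 744.4 RPM, mean 511.8 ± 229.0 (n = 4). In ob/ob at 14 weeks they were 446.1, 258.0, 340.0 and 169.3 RPM, mean 303.3 ± 118.0 (n = 4). Here the groups overlapped, as wt replicate 1 was lower than 3 of the 4 ob/ob libraries.

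let-7e-3p, the arm that is usually discarded, was far rarer, at ranks 118 to 186. In wt at 9 weeks it was at 3.64, 7.08, 4.26 and 4.13 RPM, mean 4.78 ± 1.56 (n = 4). In ob/ob at 9 weeks it was at 1.38, 1.08 and 1.003 RPM, mean 1.16 ± 0.200 (n = 3). Every ob/ob library was below every wt library, as for 41.3% of the 179 miRNAs tested. At 14 weeks wt held 2.75, 4.67, 5.40 and 5.57 RPM, mean 4.60 ± 1.29 (n = 4). There ob/ob held 2.50, 1.68, 1.66 and 0.524 RPM, mean 1.59 ± 0.811 (n = 4). The groups again did not overlap (ob/ob lower, as in 5.26% of 171 miRNAs), by a narrow margin between the first replicates of each genotype. These values rest on 25 to 182 reads per library. For the lowest, 0.524 RPM or 27 reads, the exact 95% Poisson interval was 0.345 to 0.763 RPM, and for the lowest wt library, 2.75 RPM or 25 reads, it was 1.78 to 4.06, which spans the 2.50 RPM of ob/ob replicate 1. Intervals cover counting error only, since reads without molecular identifiers are not independent molecules.

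miR-125a-5p was the most abundant of the 3, at ranks 15 to 37 and 0.141 to 1.24% of the listed sum. At 9 weeks wt held 2381, 2504, 1736 and 1286 RPM, mean 1977 ± 570 (n = 4). In ob/ob at the same age it was at 873.5, 522.3 and 470.1 RPM, mean 622.0 ± 219.4 (n = 3). No ob/ob library reached the lowest wt library, as for 41.3% of the 179 miRNAs tested. At 14 weeks wt held 1331, 3940, 3791 and 2167 RPM, mean 2807 ± 1270 (n = 4), and ob/ob 1639, 1181, 841.2 and 384.2, mean 1011 ± 531 (n = 4). The groups overlapped only because wt replicate 1 was below ob/ob replicate 1.

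By mean level, let-7e-5p and miR-125a-5p were ordered wt at 14 weeks, wt at 9 weeks, ob/ob at 14 weeks and ob/ob at 9 weeks, and every pair of neighbours in that order overlapped. let-7e-3p had wt at 9 weeks first, then wt at 14 weeks, ob/ob at 14 weeks and ob/ob at 9 weeks, and only the middle pair did not overlap. Levels were not tested across ages, because the 2 tables may have been normalised separately.

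The comparison of ob/ob with wt at 9 weeks asks which miRNAs differ with genotype at the younger age. All 3 arms fell as deposited. The log2 fold change of let-7e-5p was -1.20 ± 0.22 (SE; adjusted p from limma = 0.00538), on the log2(RPM + 0.5) scale, which understates the change of rare arms such as let-7e-3p. That of let-7e-3p was -1.64 ± 0.26 (limma adjusted p = 0.00485), and that of miR-125a-5p -1.67 ± 0.31 (limma adjusted p = 0.00543). Falls were common at this age: 32.4% of the 179 miRNAs tested passed as lower in ob/ob, 41.3% had groups that did not overlap with ob/ob lower, and the median log2 fold change was -0.51.

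Rescaled to remove that shift, the 3 arms kept their direction and passed, against 10.2% of the 177 miRNAs tested that were called lower. The rescaled log2 fold change was -0.69 ± 0.21 for let-7e-5p (limma adjusted p = 0.0469), -1.23 ± 0.26 for let-7e-3p (0.0201) and -1.16 ± 0.29 for miR-125a-5p (0.0316). The rescaled call of let-7e-5p ended without any 1 library except wt replicate 1 (adjusted p up to 0.111). That of miR-125a-5p ended without any 1 library except wt replicate 4 or ob/ob replicate 1 (up to 0.0817), while let-7e-3p passed in all 7 such fits. Rescaled over all 15 libraries, the highest ob/ob value of miR-125a-5p at 9 weeks just exceeded the lowest wt value, and the let-7e arms still did not overlap.

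**Figure D2:**
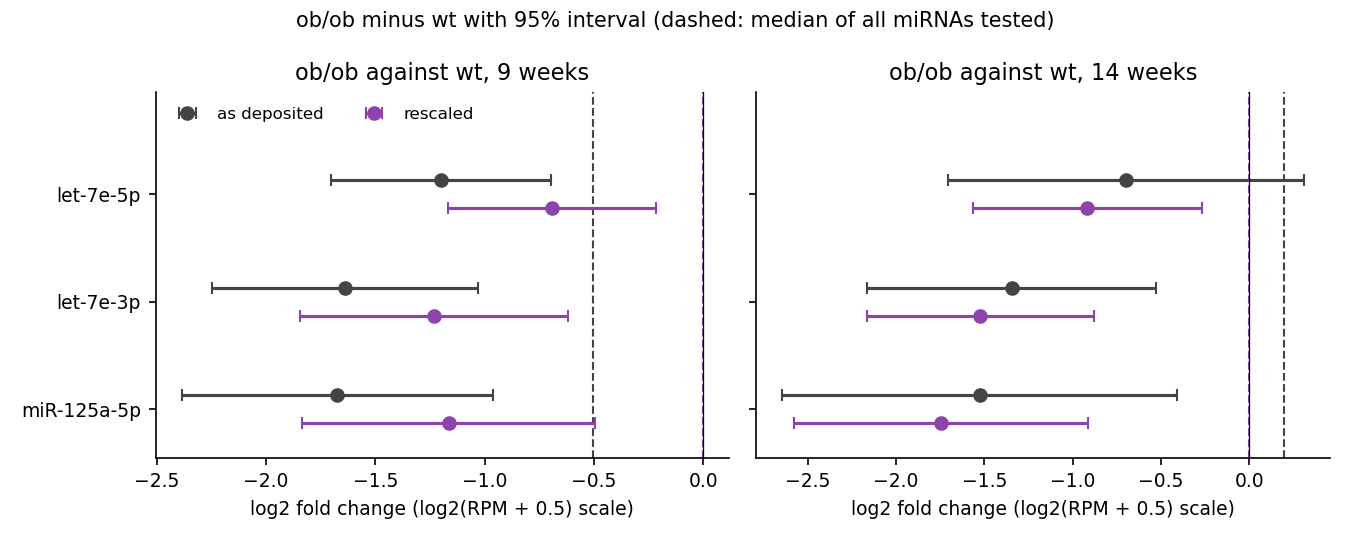
Log2 fold change of ob/ob against wt (x axis, log2(RPM + 0.5) scale) for each arm (y axis) at 9 and 14 weeks, as deposited and rescaled, with 95% intervals as bars and the median of all miRNAs tested as dashed lines. All points lie below 0, and the interval of let-7e-5p at 14 weeks as deposited, -1.71 to 0.31, is the one that spans it.

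At 14 weeks 1 of the 3 arms passed as deposited. let-7e-3p fell, the log2 fold change being -1.34 ± 0.37 (limma adjusted p = 0.0352), where 3.51% of 171 miRNAs tested passed as lower and 5.26% had groups that did not overlap with ob/ob lower. The log2 fold change of miR-125a-5p was -1.53 ± 0.50 (limma adjusted p = 0.0674) and that of let-7e-5p -0.70 ± 0.45 (95% interval -1.71 to 0.31, adjusted p = 0.342). The call of let-7e-3p ended with lane as a factor (limma adjusted p = 0.0544), and also with same-numbered replicates taken as blocks. The median over the miRNAs tested was 0.20. Rescaling brought all 3 past the threshold, at -0.92 ± 0.29 for let-7e-5p (limma adjusted p = 0.0449), -1.52 ± 0.28 for let-7e-3p (0.00507) and -1.74 ± 0.37 for miR-125a-5p (0.00794), where 13.1% of 168 miRNAs were called lower.

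Which arms passed at 14 weeks turned mainly on wt replicate 1 and ob/ob replicate 1, both of lane 1. ob/ob replicate 4, of lane 2, was the lowest library of that age for all 3 arms. Without it the differences as deposited were smallest, at -0.45 for let-7e-5p, -1.03 for let-7e-3p and -1.12 for miR-125a-5p. That of let-7e-5p was largest without wt replicate 1, at -1.07. As deposited, miR-125a-5p passed without wt replicate 1 (limma adjusted p = 0.0292) or without ob/ob replicate 1 (0.0407), and without any other library it did not (0.107 to 0.153). The call of let-7e-3p ended on leaving out any library other than these 2 (up to 0.102). After rescaling, let-7e-3p and miR-125a-5p passed in all 8 fits that left out 1 library, and let-7e-5p passed only without wt replicate 1 or ob/ob replicate 1 (up to 0.113 otherwise).

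Within lanes, 2 libraries against 2, the size of the difference varied. In lane 1 the log2 fold changes as deposited were 0.10 for let-7e-5p, -0.68 for let-7e-3p and -0.72 for miR-125a-5p, and none passed (limma adjusted p = 0.958, 0.725 and 0.725). In lane 2 they were -1.50, -2.01 and -2.33 (limma adjusted p = 0.0543, 0.0348 and 0.0364). Rescaled, lane 1 gave -0.41, -1.11 and -1.24, of which none passed (0.642, 0.355 and 0.254), and lane 2 gave -1.42, -1.96 and -2.25, all past the threshold (0.0148, 0.00955 and 0.0155). let-7e-5p thus had opposite signs in the 2 lanes as deposited and the same sign after rescaling.

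Whether the genotype difference itself differed between ages was tested as an interaction. None of the 3 arms passed, nor did any of the 187 miRNAs tested (0.00%, limma, with 48 at an unadjusted p below 0.05). The interaction (difference at 14 weeks minus that at 9 weeks) was 0.50 for let-7e-5p (95% interval -0.66 to 1.66), 0.29 for let-7e-3p (-0.72 to 1.31) and 0.15 for miR-125a-5p (-1.24 to 1.54), with limma adjusted p of 0.548, 0.704 and 0.879. Rescaled, all 3 turned negative, at -0.22, -0.28 and -0.57 (limma adjusted p = 0.814, 0.769 and 0.669). These intervals allow a larger difference at either age.

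A plain RPM ratio within a library does not depend on its scale, whereas the 0.5 RPM added to both terms for the tests brings in some dependence where an arm is rare, as let-7e-3p is. The 4 ratios chosen were compared over 4 contrasts, 16 tests in all, and none passed after Benjamini-Hochberg adjustment. Of these, 2 had an unadjusted p below 0.05, at 0.0286, the smallest the two-sided exact permutation test can give for these groups. At that floor a few ratios alone could not pass after adjustment over 16 tests, however far apart their groups lay. That none passed therefore does not show that the ratios were alike.

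The ratio of the 2 arms of let-7e was higher in ob/ob. The 5p arm exceeded the 3p arm 86.7 to 116.7 times (wt) against 177.1 to 180.2 times (ob/ob) at 9 weeks, and 77.8 to 133.7 against 153.3 to 323.0 times at 14 weeks. As plain RPM ratios, the genotypes did not overlap at either age. With 0.5 RPM added to both arms, the difference of mean log2 ratios was 0.44 at 9 weeks (exact permutation p = 0.0286, adjusted p = 0.229) and 0.64 at 14 weeks (exact permutation p = 0.0571, adjusted p = 0.305), and the 14-week groups overlapped. With nothing added it was 0.81 and 0.98 (adjusted p = 0.152 for each, exact permutation test). At 14 weeks, with 0.5 RPM added, the difference was 0.78 within lane 1 and 0.50 within lane 2. The 3p arm sets the precision here, and ob/ob libraries, in which it was rarest in RPM, were also the deeper ones.

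**Figure D3:**
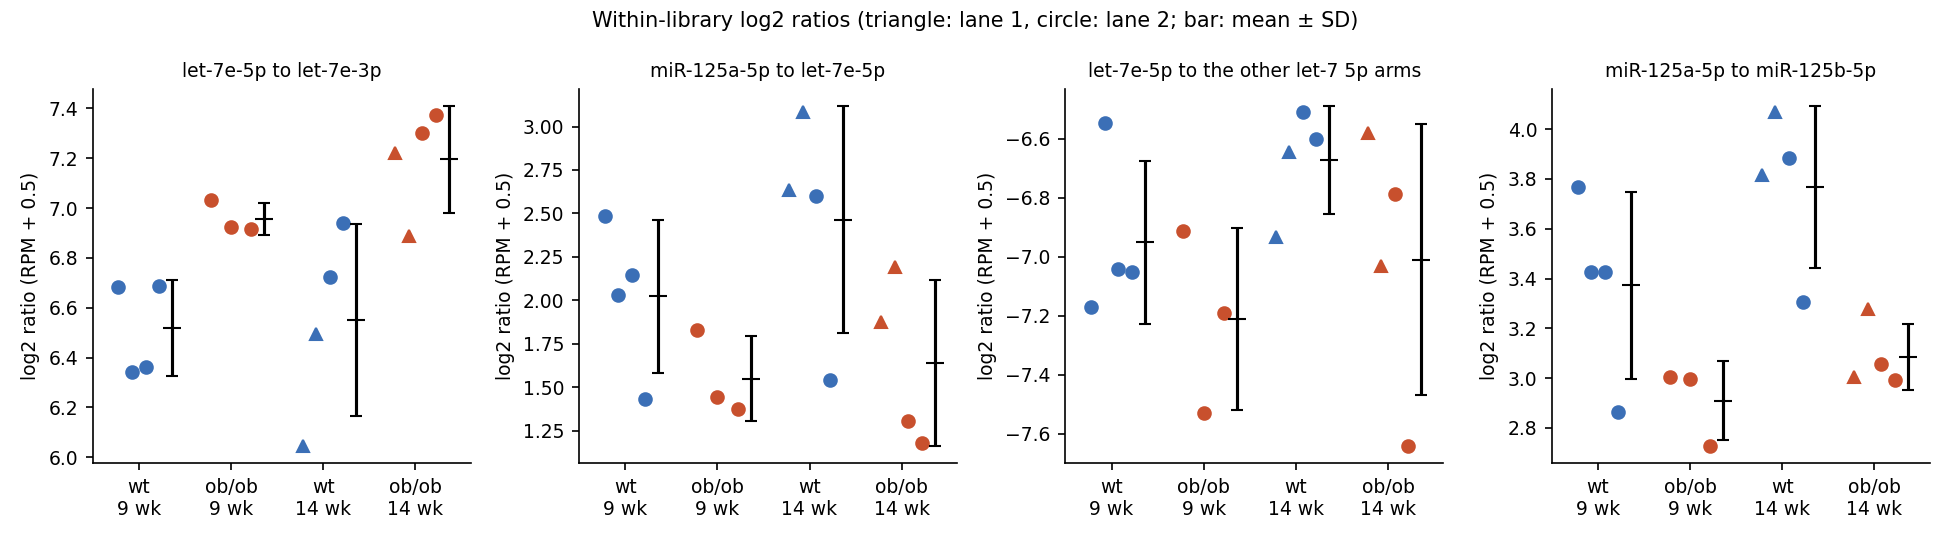
Within-library log2 ratios (y axis, 0.5 RPM added to each term) in the 4 groups (x axis), 1 point per library with the mean and SD; triangles are lane 1 and circles lane 2. The ratio of the let-7e arms at 9 weeks and that of miR-125a-5p to miR-125b-5p at 14 weeks are the genotype contrasts without overlap.

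miR-125a-5p was compared with its neighbour let-7e-5p, since both can come from 1 primary transcript. At 9 weeks miR-125a-5p was 2.70 to 5.60 times let-7e-5p in wt libraries and 2.60 to 3.56 times in those of ob/ob. At 14 weeks it was 2.91 to 8.48 times in wt libraries and 2.27 to 4.58 times in those of ob/ob. Groups overlapped at both ages. The log2 difference was -0.47 at 9 weeks (exact permutation p = 0.171, adjusted p = 0.343) and -0.83 at 14 weeks (exact permutation p = 0.0857, adjusted p = 0.305), and it was -0.82 in lane 1 and -0.83 in lane 2.

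Arms that share a seed with the members can act on the same target sites. At 9 weeks let-7e-5p supplied 0.689 to 1.06% of all measured let-7 family 5p arms in wt libraries and 0.537 to 0.821% in those of ob/ob. At 14 weeks the shares were 0.810 to 1.08% and 0.497 to 1.03%. Its log2 ratio to the other let-7 5p arms differed between genotypes by -0.26 at 9 weeks (exact permutation p = 0.314, adjusted p = 0.387) and -0.34 at 14 weeks (exact permutation p = 0.229, adjusted p = 0.366). At 14 weeks the difference was -0.02 within lane 1 and -0.66 within lane 2. let-7e-5p was thus a small part of its seed family in every group.

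miR-125a-5p, in contrast, made up most of its seed family of miR-125a-5p, miR-125b-5p and miR-351-5p. At 9 weeks its share was 73.3 to 85.8% in wt libraries and 69.6 to 80.5% in those of ob/ob, and at 14 weeks 80.4 to 88.6% and 77.9 to 82.3%. It exceeded miR-125b-5p 7.30 to 13.7 times (wt) against 6.66 to 8.07 times (ob/ob) at 9 weeks, and 9.91 to 16.8 against 8.04 to 9.75 times at 14 weeks. The log2 difference was -0.46 at 9 weeks (exact permutation p = 0.114, adjusted p = 0.305) and -0.68 at 14 weeks (exact permutation p = 0.0286, adjusted p = 0.229), where it was -0.80 in lane 1 and -0.57 in lane 2.

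Relatives of the members fell in part. Of the 8 other let-7 5p arms, 5 fell and none rose at 9 weeks as deposited (median log2 fold change -0.94, against -0.51 for all miRNAs tested), and after rescaling let-7d-5p and let-7f-5p fell and miR-98-5p rose (median -0.43). Over all miRNAs tested at 9 weeks, 32.4% fell as deposited and 10.2% after rescaling. At 14 weeks none of the 8 passed as deposited and 5 fell after rescaling (medians -0.48 and -0.70), where 13.1% of all miRNAs fell. miR-125b-5p, made by the 2 paralogous clusters, averaged 185.9 ± 31.8 RPM (wt) against 81.3 ± 23.5 (ob/ob) at 9 weeks, and 201.0 ± 72.9 against 118.3 ± 64.8 at 14 weeks. Its log2 fold change was -1.21 ± 0.24 at 9 weeks (limma adjusted p = 0.00698, rescaled 0.0628) and -0.84 ± 0.48 at 14 weeks (0.265, rescaled 0.0457). miR-351-5p passed on the same 2 scales, as deposited at 9 weeks (adjusted p = 0.0184) and rescaled at 14 weeks (0.0108).

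Clusters related to this one by duplication carry miR-99a or miR-100, let-7c or let-7a, and miR-125b. Of their 11 arms in the list 10 were tested. At 9 weeks as deposited 4 fell, let-7c-5p, let-7a-5p, miR-125b-5p and miR-100-3p, with a list median of -0.85, a count near the 32.4% of all miRNAs that fell, and none passed after rescaling (median -0.41). At 14 weeks none passed as deposited (median -0.08) and let-7c-5p, let-7a-5p and miR-125b-5p fell after rescaling (median -0.22), against 13.1% of all miRNAs.

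A list of 13 miRNAs known from endotoxin response and macrophage activation had 11 measured members. As deposited at 9 weeks 10 were tested, miR-146b-5p, induced by inflammatory signalling, rose and miR-132-3p, miR-222-3p and miR-511-3p fell, with a median of -0.21. The falls were near the 32.4% of all miRNAs that fell, and 9 of all 179 rose. After rescaling miR-146a-5p and miR-146b-5p rose and none fell (11 tested, median 0.20), so that the median changed sign, where 20 of all 177 rose. On both scales 2 members rose at 14 weeks, miR-146b-5p and miR-155-5p. There miR-222-3p fell after rescaling only (10 tested, medians 0.31 and 0.09). Of all miRNAs, 20 of 171 rose as deposited and 26 of 168 after rescaling. miR-146b-5p averaged 86.6 ± 42.2 RPM (wt) against 293.7 ± 135.4 (ob/ob) at 14 weeks, opposite in direction to the 3 arms.

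To find the miRNAs with the most similar pattern, rescaled log2 levels over the 15 libraries were centred per miRNA, and the root mean square difference from each member was taken over 108 miRNAs. let-7c-5p was closest to let-7e-5p, at 0.16 log2 units, followed by let-7b-5p at 0.20 and miR-125b-5p at 0.25, against a median of 0.61. For let-7e-5p, the other arm of its own hairpin was at 0.36 and miR-125a-5p of the neighbouring hairpin at 0.55. let-7e-3p was closest to miR-574-3p at 0.29, miR-125b-5p at 0.32 and miR-30c-2-3p at 0.33 (median 0.83). miR-125a-5p was closest to miR-125b-5p at 0.40, then miR-574-3p and let-7c-5p, each at 0.52 (median 0.96). By this measure let-7e-5p lay nearer to these let-7 relatives from other loci than to the other 2 arms of its own cluster. let-7e-3p, at 25 to 182 reads per library, lay below the mean of 10 RPM required of the 108 miRNAs. The parts of its counting error and of the wider spread of miR-125a-5p in these distances were not tested. The points share their libraries, depth and rescaling, and let-7 relatives may share misassigned reads, a part that was not tested.

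**Figure D4:**
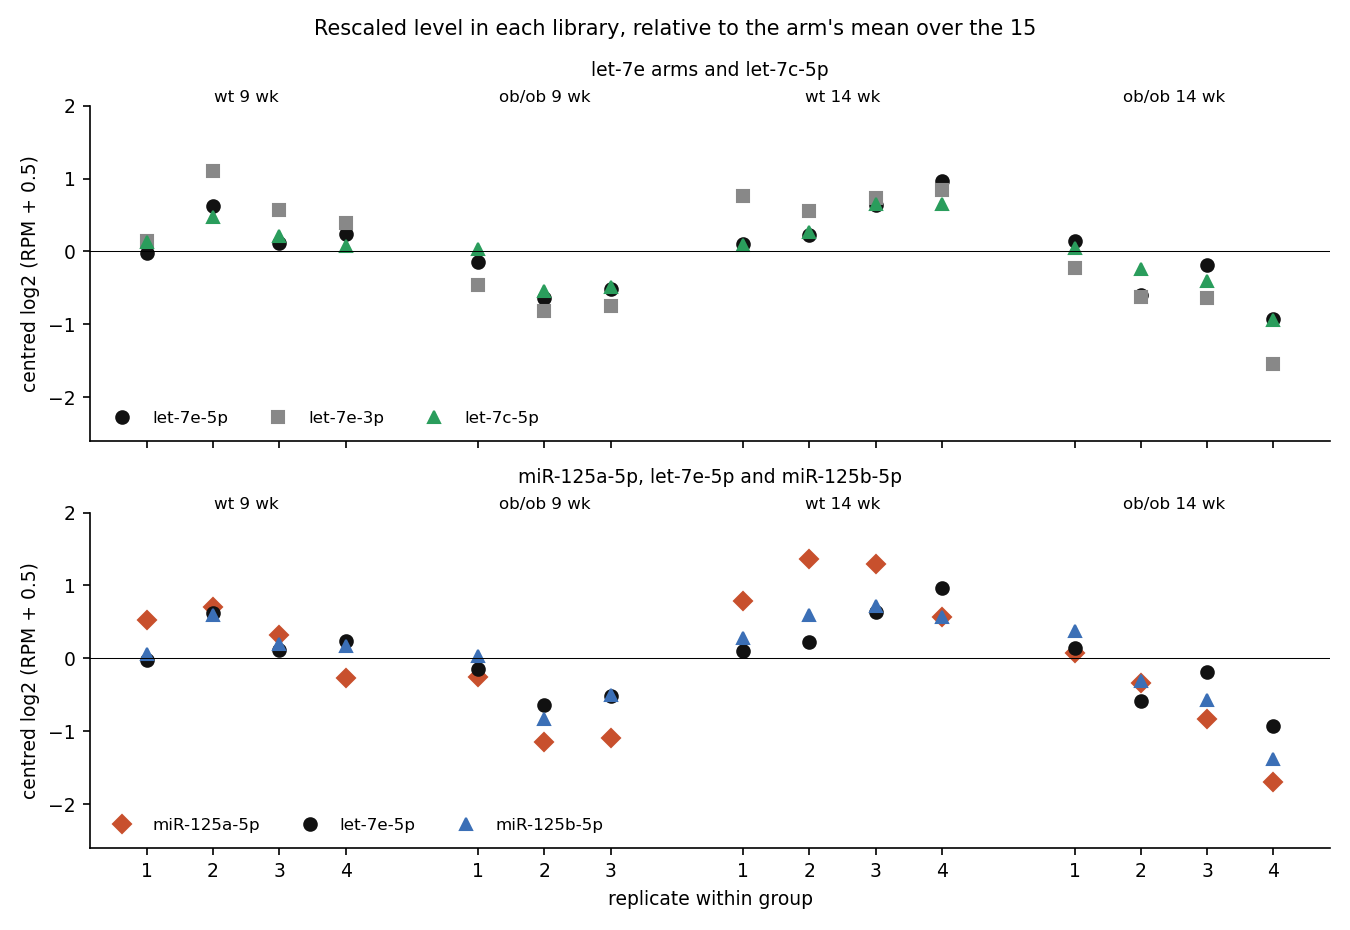
Rescaled log2(RPM + 0.5) of each arm minus its mean over the 15 libraries (y axis) by replicate and group (x axis, replicates have no order), with let-7c-5p beside the let-7e arms and miR-125b-5p beside miR-125a-5p. The let-7e-5p points lie near those of let-7c-5p, at a root mean square difference of 0.16, and those of miR-125a-5p spread more widely than those of miR-125b-5p or let-7e-5p.

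Ranked instead by Pearson's correlation after group means were removed, a description over the same 15 libraries, the same 3 miRNAs led for let-7e-5p. For miR-125a-5p that order was miR-100-5p (r = 0.94), miR-322-3p (0.94) and miR-125b-5p (0.86), and for let-7e-3p miR-125b-5p was first (0.86). miR-125b-5p was thus among the closest 3 of every arm by both measures.

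Some markers of other liver cells moved with genotype as well. Summed hepatocyte markers (4 of 4 measured) came to 1100 to 2222 RPM (wt) against 3966 to 5524 (ob/ob) at 9 weeks, and 1099 to 1689 against 3169 to 6899 at 14 weeks, without overlap at either age. Most of these sums came from miR-192-5p, which averaged 1556 against 4494 RPM at 9 weeks and 1317 against 5212 at 14 weeks. miR-122-5p averaged 46.3 against 166.2 RPM at 9 weeks, and 46.7 against 54.9 at 14 weeks. At 14 weeks it passed on neither scale (limma adjusted p = 0.551 as deposited, 0.771 rescaled). miR-194-5p passed at 9 weeks only when rescaled, and at 14 weeks only as deposited. The erythroid miR-144-5p, 1 of 3 listed markers, came to 0.522 to 1.49 against 14.7 to 21.7 RPM at 9 weeks, and 0.331 to 0.974 against 11.6 to 32.4 at 14 weeks. As sums, both sets were higher in ob/ob, opposite to the 3 arms.

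Endothelial markers (2 of 2, miR-126a-3p at 0 in some libraries) were abundant in every group, with 42296 to 59286 (wt) against 18455 to 45923 RPM (ob/ob) at 9 weeks, and 10833 to 63153 against 33631 to 55779 at 14 weeks. Stellate and mesenchymal markers (5 of 5, miR-145a-5p and miR-199a-5p at 0 in some libraries) came, in the same order, to 1380 to 1800 against 934 to 1567 RPM, and 495 to 1860 against 1347 to 2668. Lymphocyte markers (2 of 2) came to 7298 to 7533 against 4854 to 6633 RPM, and 5003 to 8082 against 5657 to 7841. As deposited sums, the lymphocyte markers did not overlap between genotypes at 9 weeks, lower in ob/ob, but neither of them passed the test on either scale. Single markers of these cells fell with the 3 arms at 9 weeks as deposited, where 32.4% of all miRNAs tested fell. They were the mesenchymal miR-199a-3p (log2 fold change -1.55 ± 0.26, limma adjusted p = 0.00525) and miR-214-3p, and the endothelial miR-126a-3p. Of these, miR-199a-3p also passed after rescaling (-1.04 ± 0.29, limma adjusted p = 0.0371). The mesenchymal miR-143-3p went the other way. As deposited it was at 0.43 at 9 weeks (limma adjusted p = 0.330) and 1.27 at 14 weeks (0.0749). Rescaled it was at 0.94 (0.0715) and 1.05 (0.0488). Myeloid markers, which fit the labelled cell type, were present in every library (3 of 5 measured, miR-142a-3p at 0 in some), with 3144 to 4465 against 2139 to 3272 RPM, and 1833 to 2917 against 2386 to 4026. Most of that sum was miR-142a-5p, which did not pass at 9 weeks as deposited (-0.51 ± 0.21, limma adjusted p = 0.0895). The macrophage miR-511-3p did fall there (-1.07 ± 0.24, limma adjusted p = 0.00984), but did not pass after rescaling (0.0860). The third measured marker, miR-142a-3p, averaged 0.105 (wt) against 0.0887 RPM (ob/ob) at 9 weeks, and 0.0211 against 13.5 at 14 weeks. It did not meet the level required for the test at either age. let-7 and miR-125 arms are made by many of these cell types, and the part of the cell mixture in the members' differences was not tested.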

How the data were processed

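Small RNA was isolated with the miRNeasy kit, and TruSeq Small RNA libraries were sequenced on an Illumina instrument, per the labels' protocols. Builds mm10 and GRCm38.p5 and the tools cutadapt and bcl2fastq stand in the submitters' processing notes. Not given in the sources used here is how reads were aligned, counted and annotated. The authors deposited 2 tables, 1 per age, taken as RPM. That unit was inferred: low values were whole multiples of 1 step within 0.1 reads, but higher values could not be checked, so no count model was used. Depth was 9.08 to 98.0 M reads.

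Each age was fitted with limma (3.58.1, R 4.3.3; trend, robust, Benjamini-Hochberg, threshold 0.05) on log2(RPM + 0.5), for miRNAs at 1 RPM or more in at least the number of libraries of the smaller group. Rescaling used miRNAs averaging 5 RPM or more and never at 0. The fit was tested on simulated data. Likeness used those averaging 10 RPM or more. The text names the 3 members, the 3 most similar miRNAs of each, arms with the same seed, the paralogous clusters and an endotoxin list. Members and lists were chosen with earlier results of these data known. Alternatives covered pseudocount, filter, rescaling, GC content, lane, replicate block and each left-out library.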

Additional observations from a re-analysis of the deposited data

Results flagged for a closer look

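Of 27 sets of library values examined for a single outlying library (the 3 arms, the ratios, the listed sum and the depth, in groups of 4), 1 stood apart. The depth of wt replicate 1 at 9 weeks, 22.8 M reads, was far above the other 3 wt libraries of that age. Chance flags about 1 in 20 such groups. Without that library, the 3 arms still fell at 9 weeks as deposited.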

How the results depend on the processing

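At 9 weeks the 3 arms stayed lower under every alternative run. Calls ended for let-7e-5p as a share of the listed sum (-0.73), an alternative chosen after seeing the data, and for rescaled let-7e-5p and miR-125a-5p without most libraries (adjusted p up to 0.111 and 0.0817). A 10 RPM filter leaves no value for let-7e-3p.

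At 14 weeks let-7e-5p passed when rescaled (-0.92), rescaled with GC correction (-1.13) and as a share of the sum (-0.90), and reversed in lane 1 (0.10). Likewise miR-125a-5p passed at -1.74, -1.61 and -1.72, and in lane 2 (-2.33). let-7e-3p lost its call with the replicate block (-1.34, adjusted p = 0.121), with lane as a factor (-1.34, 0.0544) and in lane 1 (-0.68). In lane 1 the rescaled calls ended too (-0.41, -1.11 and -1.24), with 2 libraries per group. Whether the replicate numbers pair the samples cannot be told here. Deviations of same-numbered libraries correlated at -0.225 to 0.133 over 117 miRNAs, but so few pairs per age cannot show that pairing was absent.

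The interaction reversed for let-7e-5p (-0.22 rescaled, -0.32 rescaled with GC correction, -0.16 as a share, -0.30 in lane 2), let-7e-3p (-0.28, -0.14, -0.24, -0.37) and miR-125a-5p (-0.57, -0.52, -0.52, -0.66). None passed. In lane 2 the 14 against 9 week ratios in ob/ob reversed for miR-125a-5p to let-7e-5p (-0.31) and let-7e-5p to the other let-7 arms (-0.0038). The cause of these changes was not tested.

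Counts of called miRNAs at 9 weeks were 67 as deposited, 38 rescaled, 42 rescaled with GC correction, 32 with the block and 35 as a share. At 14 weeks they were 26, 48 rescaled, 48 as a share, 1 in lane 1, 51 in lane 2 and 0 in lane 1 rescaled. The interaction gave 4 calls with no filter and 2 each with the 10 RPM filter, the block and lane 2.

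Leaving out 1 library at a time changed no sign of an ob/ob effect at either age. The rescaled 9-week effect ranged from -0.82 to -0.58 (let-7e-5p) and -1.43 to -1.01 (miR-125a-5p). At 14 weeks the ranges were -1.10 to -0.77 for let-7e-5p rescaled, -1.55 to -1.03 for let-7e-3p and -1.84 to -1.12 for miR-125a-5p. The interaction of miR-125a-5p ranged from -0.17 (without wt replicate 1 of 14 weeks) to 0.55. Across ages, the ratio of the let-7e arms in wt ranged from -0.10 to 0.20 and miR-125a-5p to let-7e-5p in ob/ob from -0.10 to 0.24. Counts were 16 to 38 rescaled at 9 weeks, with 16 to 22 on leaving out ob/ob replicate 1 or 3, or replicate 2, 3 or 4 of wt. At 14 weeks they were 13 to 46, with 13 without ob/ob replicate 3, 15 without wt replicate 3 and 46 without wt replicate 1. Rescaled they were 28 to 55, with 28 to 30 without wt replicate 3 or ob/ob replicate 2 or 3. The interaction gave 3, 1 and 2 calls without wt replicate 2, wt replicate 3 or ob/ob replicate 1 of 14 weeks, 2 rescaled without the last, and 0 otherwise. let-7e-3p rests on 25 to 182 reads, the fewest of the 3 arms.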
